A study of Mus musculus with 10 samples.

Results

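The genes described here are 10 members of the Hippo pathway and its best known outputs, chosen by symbol: the coactivators Yap1 and Wwtr1 (which encodes TAZ), the DNA-binding factors Tead1, Tead2 and Tead4, the kinase gene Lats2, and the target genes Ctgf, Cyr61, Ankrd1 and Amotl2. All 10 were found among the 30431 rows of each table of the authors' comparisons, and all 10 had an average level of at least 1 CPM (read counts scaled to equal library totals). RNA came from whole kidneys at postnatal day 21 in 10 libraries, 4 from wild types (WT), 3 of genotype Pkhd1Cre; Pkd2 F/F (SM) and 3 of genotype Pkhd1Cre; Pkd2 F/F; miR-21null (DM). SM and DM thus share the deletion of Pkd2, the polycystin-2 gene, by a Cre driver known for activity in the collecting duct, and DM, by its label, also lacks miR-21. Whole kidney also holds the many cells that this driver does not reach.

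In the Hippo pathway, a kinase cascade ends in LATS1 and LATS2, which phosphorylate YAP and TAZ and keep them out of the nucleus. When the cascade is quiet, YAP and TAZ enter the nucleus and, having no DNA-binding domain of their own, act through TEAD factors on genes of matrix, cytoskeleton and growth. Much of this control acts on protein, which RNA sequencing does not measure. In kidney the pathway has been studied in nephron formation, in fibrosis and in polycystic disease.

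TEAD factors recognise the core word GGAATG, read as CATTCC on the other strand. The promoter table from RefSeq (GRCm38.p6), which spans 250 bases before to 50 bases after each start site, held 7 of the 10 genes. Of these, 6 had the word on either strand at 1 start site or more, namely Yap1, Wwtr1, Lats2, Cyr61, Ankrd1 and Amotl2. Tead2 did not have it in this window. The word was present in 16.6% of all 27025 genes listed there, and 5 of the 19 other reported YAP targets that were found there had it. The AP-1 word TGANTCA was in the window of 0 of the 7 genes and of 8.97% of all genes. A match is a description of letters, not evidence of binding. Ctgf, Tead1 and Tead4 were not analysed here for promoter words. The promoters of the 3 target genes found there are shown, since the results below turn on the target genes. They read 5′ to 3′ on the gene's strand, with the TEAD core word of either strand in capitals. Their windows are chr19:36119795-36120094 on the minus strand for Ankrd1, chr3:145649936-145650235 on the minus strand for Cyr61 and chr9:102717554-102717853 on the plus strand for Amotl2.
Ankrd1: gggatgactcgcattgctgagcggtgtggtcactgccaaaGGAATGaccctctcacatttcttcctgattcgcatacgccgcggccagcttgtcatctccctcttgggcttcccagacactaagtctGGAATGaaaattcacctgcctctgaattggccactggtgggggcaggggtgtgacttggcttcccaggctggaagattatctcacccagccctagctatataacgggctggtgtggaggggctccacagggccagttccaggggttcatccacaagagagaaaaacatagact
Cyr61: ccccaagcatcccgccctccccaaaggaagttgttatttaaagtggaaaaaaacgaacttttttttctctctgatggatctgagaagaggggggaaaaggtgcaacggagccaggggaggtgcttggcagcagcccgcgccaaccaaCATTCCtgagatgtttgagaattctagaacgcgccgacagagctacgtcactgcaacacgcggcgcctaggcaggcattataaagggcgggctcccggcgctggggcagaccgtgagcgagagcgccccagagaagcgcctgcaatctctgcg
Amotl2: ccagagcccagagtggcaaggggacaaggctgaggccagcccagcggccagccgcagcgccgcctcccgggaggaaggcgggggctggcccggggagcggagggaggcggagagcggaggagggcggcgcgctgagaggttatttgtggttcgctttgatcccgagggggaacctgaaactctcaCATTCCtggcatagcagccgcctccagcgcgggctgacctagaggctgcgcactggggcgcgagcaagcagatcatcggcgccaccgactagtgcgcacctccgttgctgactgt

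Ankrd1 had 2 copies of the word, starting 210 and 123 bases before the start site, both on the gene's strand. Cyr61 had 1 copy at 103 bases and Amotl2 1 copy at 65 bases before the start, both on the other strand. In Yap1 the word lay 141 bases before the start, and in Lats2 it began 5 bases into the transcript of 1 of 2 start sites. Both start sites of Wwtr1 share a single copy, which lies 170 or 136 bases upstream depending on the start used.

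**Figure D1:**
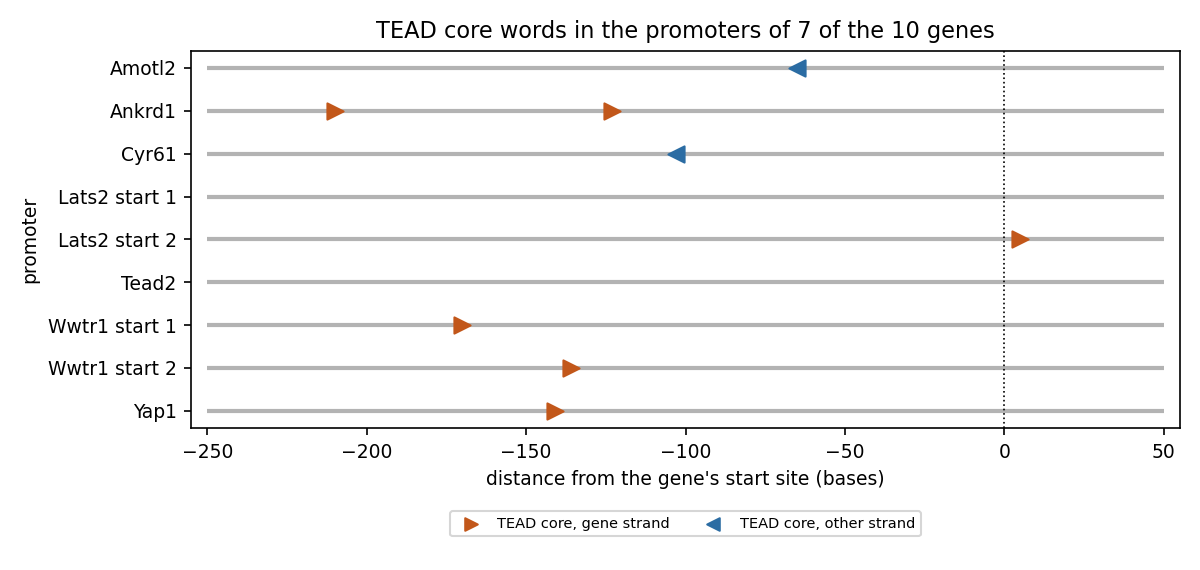
Position of the TEAD core word in the 9 promoter windows of 7 of the 10 genes; the x axis is the distance from the start site in bases, and each triangle is a copy on the gene's strand (pointing right) or the other strand (pointing left). Ankrd1 has 2 copies, and Tead2 and 1 of the 2 Lats2 windows have none.

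Each log2 fold change below, with its p and adjusted p, is read from the authors' deposited table (edgeR, likelihood ratio test), and a gene is called changed where its adjusted p is below 0.05. The standard error (SE) was worked out from each fold change and its likelihood ratio, and 95% intervals are built from it. Levels per group are in CPM and were computed from the deposited average over all libraries and the fold changes. The tables give no value per library, so the spread between libraries is seen only through the SE, and whether single libraries of the groups overlap is not shown. The depth of the libraries is unknown.

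As checks of the labels, Pkd2 had a log2 fold change of -0.41 (SE 0.20) in SM against WT and -0.49 (SE 0.20) in DM against WT by the authors' deposited tables, with adjusted p = 0.179 and 0.0838. Neither passed the threshold, and the row covers the whole gene in all cells of the kidney. Vmp1, whose transcribed region holds the miR-21 gene, stood at 0.26 (SE 0.30, adjusted p = 0.729) in SM and at 1.33 (SE 0.30, adjusted p = 2.14e-04) in DM against WT by the authors' deposited tables. In DM against SM Vmp1 stood at 1.07 (SE 0.32, adjusted p = 0.320) by the authors' deposited table and was not called. The row of the miR-21 gene stood at the lowest level of the tables in all groups and checks nothing. Kidney markers were present, with 10 of 10 proximal tubule genes and 8 of 8 genes of the thick ascending limb and distal convoluted tubule above 1 CPM. Of these, 7 and 4 fell in SM against WT and 8 and 4 in DM against WT by the authors' deposited tables, and 0 rose. Over all rows 6.09% fell in SM against WT and 5.92% in DM against WT.

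SM kidneys had more RNA of 3 of the 4 target genes and of 2 of the 3 TEAD genes, while Yap1, Wwtr1, Lats2, Tead4 and Amotl2 did not pass the test. In SM against WT, Ankrd1, Cyr61, Ctgf, Tead2 and Tead1 rose, which is 5 of 10, and 0 fell. As background, the authors' deposited table had 14.0% of all rows called, 7.87% higher and 6.09% lower, and 12.2% higher among the 15135 rows of at least 1 CPM. The median log2 fold change of the 10 genes was 0.60, against 0 over all rows. Measured values ranged from 0.02 for Lats2 to 4.76 for Ankrd1 in the authors' deposited table.

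**Figure D2:**
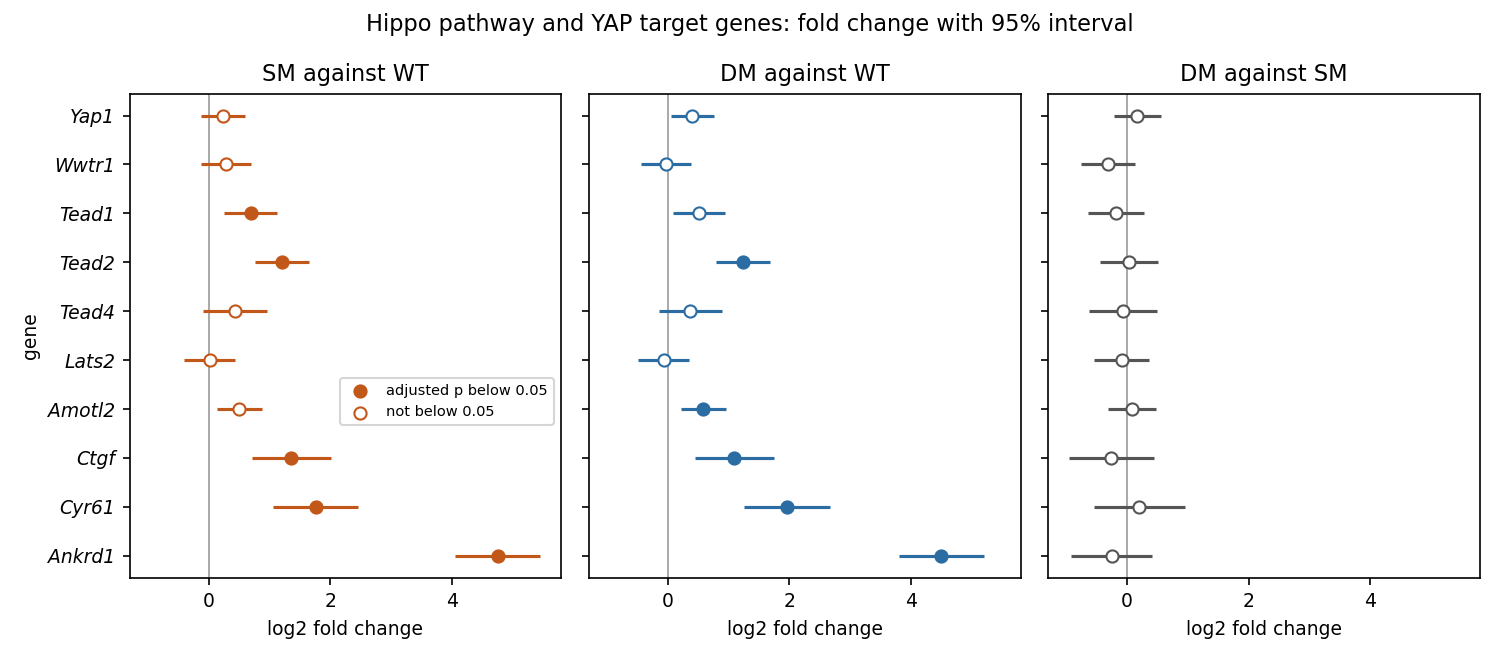
Log2 fold change (x axis) of the 10 genes (rows) in the authors' 3 deposited comparisons; points are the deposited values, bars the 95% interval from the SE, and filled points have an adjusted p below 0.05. Ankrd1 lies apart at 4.76 and 4.50 in the 2 comparisons with WT, and in DM against SM all 10 intervals include 0.

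Ankrd1 encodes an ankyrin repeat protein of the sarcomere and nucleus of muscle, and is widely used as a readout of YAP activity. Its level was 2.0 CPM in WT, 54.0 CPM in SM and 45.2 CPM in DM. WT was far below both mutant groups, which lay close together. The log2 fold change in SM against WT was 4.76 (SE 0.36), or 27.0-fold with a 95% interval from 16.6 to 44.0, with adjusted p = 1.26e-36 in the authors' deposited table. By p this was the 9th of all 30431 rows. Levels of Ankrd1 depended on how the deposited average was read: taken as a mean of log2 values, WT stood at 4.46, SM at 121 and DM at 101 CPM, with the same folds.

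Cyr61 (now Ccn1) and Ctgf (now Ccn2) encode secreted matricellular proteins of the CCN family, and both are early transcriptional targets of YAP and TEAD. Cyr61 stood at 36.6 CPM in WT, 124 CPM in SM and 142 CPM in DM. By the authors' deposited table its log2 fold change was 1.76 (SE 0.36, adjusted p = 3.27e-05), or 3.39-fold for SM over WT with an interval from 2.08 to 5.52. Ctgf stood at 282 CPM in WT, 723 CPM in SM and 602 CPM in DM. Its log2 fold change in SM was 1.36 (SE 0.33, adjusted p = 8.58e-04) by the authors' deposited table, or 2.56-fold with an interval from 1.63 to 4.03. Both genes were thus higher in both mutant groups than in WT, Cyr61 with its highest level in DM and Ctgf in SM.

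Amotl2 encodes an angiomotin-like junction protein that binds YAP and is itself a YAP target. It stood at 131 CPM in WT, 186 CPM in SM and 197 CPM in DM. In SM against WT the log2 fold change of 0.50 (SE 0.19) missed the threshold, with adjusted p = 0.053 by the authors' deposited table. Taking only rows of at least 1 CPM into the adjustment, it passed at 0.0343, so its call in SM depends on which rows are counted. In DM against WT the value of 0.58 (SE 0.19) passed in the authors' deposited table, with adjusted p = 0.0196.

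Among the TEAD factors, which carry YAP and TAZ to DNA, Tead2 differed most. It stood at 10.2 CPM in WT, 23.7 CPM in SM and 24.2 CPM in DM, so the mutant groups were nearly level with each other. The log2 fold change in SM against WT was 1.21 (SE 0.23, adjusted p = 4.2e-06) by the authors' deposited table, or 2.31-fold with an interval from 1.70 to 3.14. Tead1 stood at 97.1 CPM in WT, 157 CPM in SM and 138 CPM in DM. Its value of 0.69 (SE 0.22) passed in SM against WT, with adjusted p = 0.0165 in the authors' deposited table. Tead4 stood at 7.89, 10.7 and 10.2 CPM in WT, SM and DM, and its 0.44 (SE 0.27, adjusted p = 0.344) in SM did not pass in the authors' deposited table.

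Transcripts of the coactivators themselves were not called changed in SM or DM against WT. Yap1 stood at 97.5 CPM in WT, 115 CPM in SM and 129 CPM in DM, with 0.24 (SE 0.18, adjusted p = 0.519) in SM against WT by the authors' deposited table. The 95% interval of the SM to WT ratio ran from 0.919 to 1.51, so a rise of the size seen in Cyr61 lay outside it. For DM against WT the Yap1 interval ran from 1.03 to 1.69, above 1, although its adjusted p did not pass. Wwtr1 stood at 132 CPM in WT, 161 CPM in SM and 129 CPM in DM, with 0.28 (SE 0.21, adjusted p = 0.478) in SM in the authors' deposited table. The interval of its SM to WT ratio ran from 0.917 to 1.62. Lats2, the kinase that restrains YAP and is also a feedback target of it, stood at 81.9, 83.0 and 78.0 CPM in WT, SM and DM. Its ratio of SM to WT was 1.01 with an interval from 0.758 to 1.36, computed from the authors' deposited table (adjusted p = 1).

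**Figure D3:**
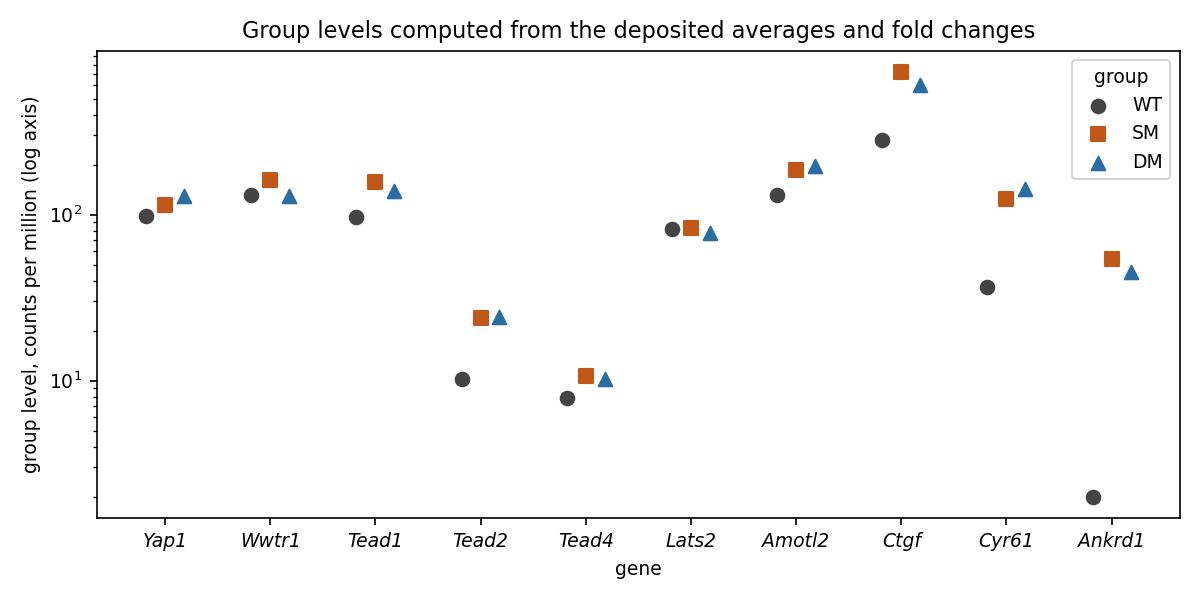
Level of each of the 10 genes (x axis) in CPM on a log axis for WT (circles), SM (squares) and DM (triangles), computed from the deposited average and fold changes, with no error bar because no value per library was analysed. Ankrd1 shows the widest gap, from 2.0 CPM in WT to 54.0 CPM in SM, and Lats2 the narrowest, from 78.0 CPM in DM to 83.0 CPM in SM.

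DM kidneys had Ankrd1, Cyr61, Tead2, Ctgf and Amotl2 higher than WT, again 5 of 10 with 0 lower, where 13.5% of all rows were called, and 7.55% of all rows and 11.3% of the rows of at least 1 CPM were higher in the authors' deposited table. The comparisons of SM and of DM with WT share the WT libraries, so they are not independent of each other. Ankrd1 had a log2 fold change of 4.50 (SE 0.35, adjusted p = 2.63e-33) in DM against WT by the authors' deposited table, or 22.6-fold. Cyr61 stood at 1.96 (SE 0.36, adjusted p = 2.95e-06) and Tead2 at 1.24 (SE 0.23, adjusted p = 2.35e-06) by the authors' deposited table. Ctgf stood at 1.09 (SE 0.33) there, with adjusted p = 0.0111 in the authors' deposited table. Tead1 at 0.51 (SE 0.22, adjusted p = 0.112) and Yap1 at 0.40 (SE 0.18, adjusted p = 0.141) did not pass in the authors' deposited table. Values for Tead4, Wwtr1 and Lats2 were 0.37, -0.03 and -0.07, with adjusted p = 0.461, 1 and 1 in the authors' deposited table.

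Between DM and SM kidneys no difference was detected in any of the 10 genes. In DM against SM, edgeR's likelihood ratio test called 0 of 10 genes in the authors' deposited table, and 0 of 10 had an unadjusted p below 0.05. Across all rows 0.0789% were called and 3.75% had an unadjusted p below 0.05 in the authors' deposited table. Log2 fold changes ran from -0.31 for Wwtr1 (SE 0.22, p = 0.162 before adjustment) to 0.20 for Cyr61 (SE 0.38) in the authors' deposited table, and the adjusted p was 1 for all 10 genes. On the log scale, the narrowest interval of the DM to SM ratio was that of Yap1, from 0.860 to 1.46, and the widest that of Cyr61, from 0.684 to 1.94. For Ctgf it ran from 0.513 to 1.35 and for Ankrd1 from 0.527 to 1.33. These intervals surround each estimate and are not limits of detection, and with 3 libraries in each group a larger difference could also go uncalled. The values do not show that the groups were alike. Tead1 passed in SM and Amotl2 in DM against WT, and a difference between DM and SM was shown for neither: their values in DM against SM were -0.18 (SE 0.24) and 0.08 (SE 0.20) in the authors' deposited table.

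MicroRNAs lower the RNA of genes whose 3′ untranslated region pairs with the seed, bases 2 to 8. The mature miR-21a-5p from RefSeq (GRCm38.p6) is shown because the DM label names its loss, with the seed in capitals. The word that pairs with it, ATAAGCT, was found in the longest annotated 3′ untranslated region of 2 of the 10 genes, Yap1 and Wwtr1, once in each, and in 8.12% of 12825 genes of at least 1 CPM. Below it are the 2 words, in capitals, with the transcript bases around each.
miR-21a-5p: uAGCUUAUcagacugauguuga
Yap1 site: taactctgtgtATAAGCTatgaagtaata
Wwtr1 site: gcaattttctaATAAGCTtgtggcattat

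These are sequence matches, not measured pairing. Between DM and SM, Yap1 stood at 0.17 (SE 0.20) and Wwtr1 at -0.31 (SE 0.22) in the authors' deposited table. The coactivators thus had opposite signs, neither of which passed the test.

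Levels of different genes can be compared only per length, here as CPM per kilobase of annotated exon (GENCODE release M21). Ctgf was the highest of the 10 genes in every group, at 98.6 CPM per kilobase in WT, 253 in SM and 210 in DM. Cyr61 was the fourth of the 10 in WT, at 18.1 CPM per kilobase, and stood at 61.3 in SM and 70.5 in DM. Ankrd1 was the lowest in WT, at 0.693 CPM per kilobase, and in SM, at 18.7, it stood above the 3 TEAD genes, Lats2 and Yap1. Tead1 stood above both other TEAD genes in WT, at 7.16 CPM per kilobase against 2.14 for Tead2 and 2.19 for Tead4. With the length of the longest coding transcript in place of all exons, Yap1 stood at 27.5 and Ankrd1 at 26.8 CPM per kilobase in SM, so their order turned. The places of Ctgf and of Ankrd1 in WT did not change, and the order among middle genes is not resolved.

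Of the other genes of the pathway, 96 on 5 lists were measured. In SM against WT 33 rose and 1 fell by the authors' deposited table, with a median log2 fold change of 0.31, where 7.87% of all rows rose and 6.09% fell. In DM against WT 32 rose and 2 fell by the authors' deposited table, with a median of 0.21, where 7.55% of all rows rose and 5.92% fell. Most of the 96 genes averaged at least 1 CPM, and among all rows of that level 12.2% rose in SM and 11.3% in DM. Most of the listed genes that rose were reported targets rather than genes of the cascade itself.

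Upstream regulators, which sense polarity and junctions and feed into the kinases, rose for 5 of 25 genes in SM against WT and for 5 in DM against WT, with 0 lower, by the authors' deposited tables. All 25 averaged at least 1 CPM, a level at which 12.2% of all rows rose in SM and 11.3% in DM. Among the upstream regulators the atypical cadherin Fat1, the LIM protein Ajuba, the phosphatase Ptpn14 and the polarity gene Llgl1 passed in both comparisons. Ajuba stood at 1.03 (SE 0.20) and Fat1 at 1.03 (SE 0.25) in SM against WT by the authors' deposited table. Ptpn14, which binds YAP and is also a reported target, stood at 0.99 (SE 0.22) in SM and 0.90 (SE 0.22) in DM in the authors' deposited tables. Llgl1 stood at 0.70 in SM and at 0.71 in DM in the authors' deposited tables.

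The kinase cascade moved least, with a median of 0.13 in SM and 0.06 in DM over 15 genes. In SM the casein kinase gene Csnk1e rose at 0.72 (SE 0.20, adjusted p = 0.00548), and in DM the kinase adaptor Mob1a rose at 0.65 (SE 0.20, adjusted p = 0.013), each the single gene called in the authors' deposited table. That share, 1 of 15 genes, is near the background of all rows. In the other comparison Mob1a stood at 0.51 (adjusted p = 0.0697) and Csnk1e at 0.52 (adjusted p = 0.0728) by the authors' deposited tables.

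TEAD partners and competitors rose for 4 of 12 genes in SM and 3 in DM, with 0 lower, by the authors' deposited tables. The share of all rows of at least 1 CPM that rose was 12.2% in SM and 11.3% in DM. Vgll3, a vestigial-like cofactor that binds TEAD in place of YAP, rose from 5.05 CPM in WT to 23.7 CPM in SM, with a log2 fold change of 2.23 (SE 0.31, adjusted p = 7.18e-11) by the authors' deposited table. In DM it stood at 1.95 (SE 0.31) in the authors' deposited table. Among the 14-3-3 genes, whose proteins hold phosphorylated YAP in the cytoplasm, Sfn rose by 1.49 (SE 0.27) in SM and 1.54 (SE 0.27) in DM, and Ywhah by 0.90 and 0.79, in the authors' deposited tables. Vgll1 passed in SM at 2.63 (SE 0.76, adjusted p = 0.00643) by the authors' deposited table, at an average of only 0.182 CPM.

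**Figure D4:**
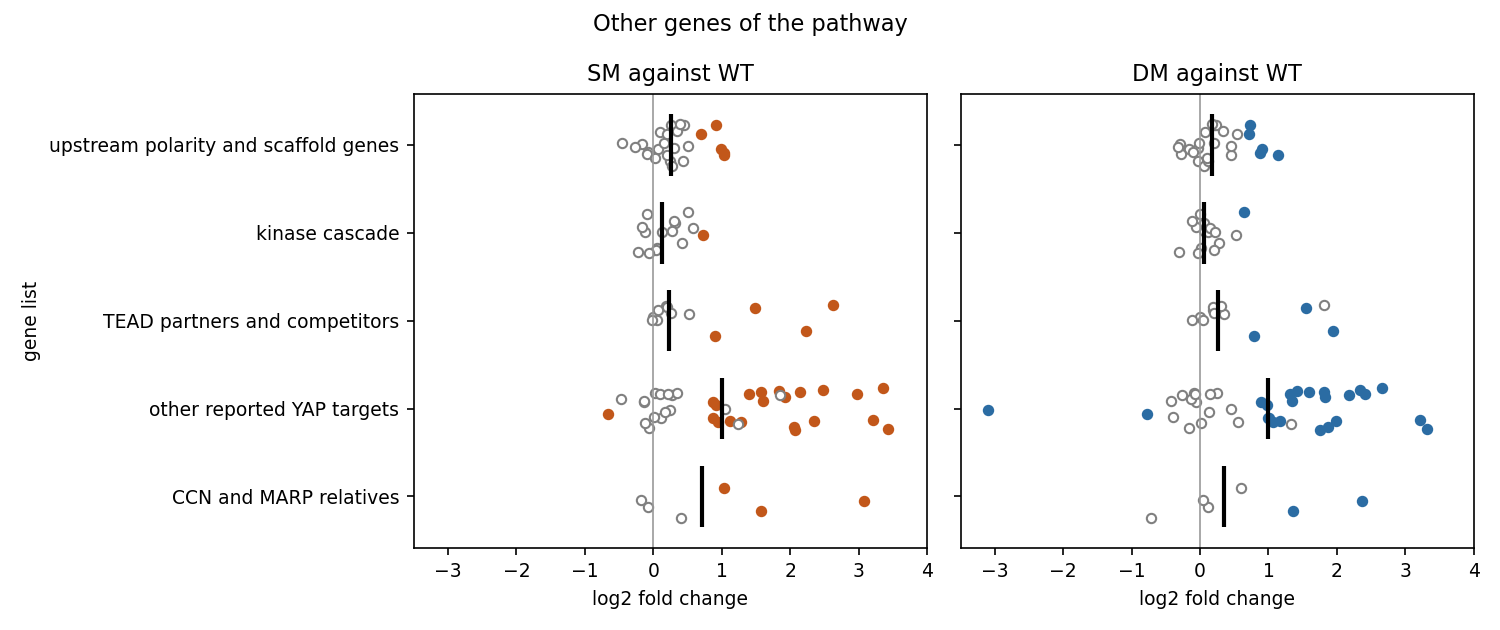
Log2 fold change (x axis) of the 96 other genes of the pathway on 5 lists (rows) in SM and DM against WT, from the authors' deposited tables; each point is a gene, filled where its adjusted p is below 0.05, and black bars are list medians. The reported targets have medians of 1.0 in both comparisons, and the kinase cascade stays near 0.

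Of 38 other reported YAP targets, 20 rose and 1 fell in SM against WT, and 21 rose and 2 fell in DM against WT, by the authors' deposited tables, with a median of 1.0 in both. Inhba, which encodes an activin subunit, had the largest value in SM, 3.42 (SE 0.38, adjusted p = 1.75e-16), followed by the EGF family ligand gene Ereg at 3.36 (SE 0.73), in the authors' deposited table. Msln, the mesothelin gene, stood at 3.22 (SE 0.24) and the endothelin gene Edn1 at 2.48 (SE 0.26) in the authors' deposited table, where Tgfb2, a TGF-beta ligand gene, stood at 2.35 (SE 0.26). In DM against WT the values were 3.32 for Inhba, 2.65 for Ereg, 3.21 for Msln and 2.34 for Edn1 in the authors' deposited table. Ereg averaged 0.45 CPM, so its value rests on few reads. Beside the counts of targets, 12.2% of all rows of at least 1 CPM rose in SM and 11.3% in DM.

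Targets did not all move one way. Fgf1, a fibroblast growth factor gene, fell in both comparisons, at -0.66 (SE 0.20) in SM and -0.78 (SE 0.20) in DM in the authors' deposited tables. The forkhead gene Foxf2 fell in DM at -3.09 (SE 0.99, adjusted p = 0.0176) by the authors' deposited table, at an average of 0.152 CPM. The cyclin gene Ccnd1 at 0.17 (adjusted p = 0.799) and Igfbp3 at 0.03 (adjusted p = 1), both often cited as targets, did not pass in SM in the authors' deposited table. These 2 were named after their values were seen.

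In DM against SM 0 of the 96 genes were called by edgeR's likelihood ratio test in the authors' deposited table, where 0.0789% of all rows were called. An unadjusted p below 0.05 was found for 3 of the 96 genes, beside 3.75% of all rows. These 3 do not stand out from that share and are named here after their values were seen. They were Foxf2 at -3.33 (p = 0.00113), the kinase gene Nuak2 at 0.90 (p = 0.0158) and Asap1 at -0.54 (p = 0.0382), with adjusted p = 0.352, 1 and 1 in the authors' deposited table. Nuak2 stood at 102 CPM in WT, 110 CPM in SM and 205 CPM in DM, and it passed in DM against WT at 1.01 (SE 0.34, adjusted p = 0.0287) by the authors' deposited table.

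Relatives of the CCN and ankyrin repeat targets rose for 3 of 6 genes in SM and 2 of 6 in DM against WT, with 0 lower, by the authors' deposited tables. Over all rows 7.87% rose in SM and 7.55% in DM, or 12.2% and 11.3% of rows of at least 1 CPM. Wisp1 and Wisp2, CCN genes like Ctgf and Cyr61, rose by 1.58 (SE 0.26) and 3.08 (SE 0.52) in SM and by 1.36 and 2.37 in DM in the authors' deposited tables. Wisp2 averaged only 0.679 CPM. Nov, another CCN gene, passed in SM at 1.03 (SE 0.33, adjusted p = 0.0172) and stood at 0.60 (adjusted p = 0.266) in DM by the authors' deposited tables. Wisp3, at an average of 0.108 CPM, stood at 0.41 in SM and -0.72 in DM in the authors' deposited tables and passed in neither. Ankrd2 and Ankrd23, the muscle relatives of Ankrd1, stood at -0.07 (adjusted p = 1) and -0.18 (adjusted p = 0.844) in SM in the authors' deposited table, beside 4.76 for Ankrd1.

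Other cell types moved with these genes, and since the samples are whole kidneys, more cells of a type and more RNA per cell cannot be told apart. Fibroblast and mural cell markers rose for 9 of 15 genes in SM and 7 in DM, with 0 lower, by the authors' deposited tables, and their summed level went from 1457 CPM in WT to 4525 in SM and 3742 in DM. The collagen genes Col3a1, Col1a2 and Col1a1 had the highest averages of the 15, so they weigh most in these sums. Pdgfra and Pdgfrb, named after their values were seen, were called in neither comparison. They stood at 0.21 and 0.25 in SM and both at -0.22 in DM in the authors' deposited tables. Macrophage markers rose for 10 of 10 and 9 of 10 genes in the authors' deposited tables, with sums of 141, 512 and 516 CPM in WT, SM and DM. Principal cell markers of the collecting duct rose for 8 and 4 of 10 genes in the authors' deposited tables, with sums of 951, 1511 and 1331 CPM. Aqp2, with the highest average of these 10 genes, and Aqp3 were called in neither comparison, and are named after their values were seen. In the authors' deposited tables Aqp2 stood at -0.28 in SM and -0.06 in DM, and Aqp3 at -0.27 and -0.11. The sums are thus no clear reading of principal cells. Mesothelium markers, which include the target Msln, rose for 3 of 6 genes in both, with 1 lower in DM, in the authors' deposited tables, and their sums were 80.7, 254 and 221 CPM. Those that rose were Krt19, Upk3b and Msln, and Krt19 had the highest average of the 6, so it weighs most in the sums. Lrrn4 fell in DM, and Upk1b and Wt1 were called in neither, all named after their values were seen. The sums are thus no clear reading of mesothelium. The part of these cells in the values of Ctgf, Cyr61, Ankrd1, Tead2 and the reported targets was not tested. Beside the marker counts, 12.2% of all rows of at least 1 CPM rose in SM and 11.3% in DM.

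Most markers of the other types read fell or did not pass. Endothelial markers were called for 0 of 10 genes in SM and fell for 4 in DM, with sums of 1380, 1278 and 1001 CPM in WT, SM and DM, and podocyte markers fell for 4 of 10 genes in each of the authors' deposited tables, from 793 CPM in WT to 595 and 568. Striated muscle markers were read because Ankrd1 is a muscle gene: 2 of 16 rose in each comparison, 2 fell in SM and 1 in DM, in the authors' deposited tables. Their sums were 7.0 CPM in WT, 5.24 in SM and 6.25 in DM, with Myh4 at the lowest level of the tables in all groups. Both that rose, Actc1 and Tnni2, named after their values were seen, averaged below 1 CPM. Hepatocyte markers fell for 8 of 11 genes in SM, and for 8 with 1 higher in DM, in the authors' deposited tables, with sums of 472, 211 and 189 CPM in WT, SM and DM. Their median log2 fold change was -4.02 in SM and -4.41 in DM, against -0.34 and -0.56 for podocyte markers. The reason for falls of this size was not tested. Over all rows 6.09% fell in SM and 5.92% in DM.

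Genes nearest to Ankrd1, Cyr61, Ctgf and Tead2 in the pair of log2 fold changes (SM against WT and DM against WT) were read as a description over 3 group levels. Ankrd1 had no other named gene within 0.2 on the log2 scale, and its nearest were Npy2r, Il18r1 and Col12a1, at distances of 0.28, 0.33 and 0.37. Cyr61 had 49 genes within 0.2, led by Sash3, Trpv2 and Fcer1g. Ctgf had 149, led by Agbl2, Tspyl3 and Anxa13, and Tead2 had 158, led by Oip5, Socs2 and Lpxn. The pattern of Ankrd1 was thus rare by size, and those of Ctgf and Tead2 had many genes near them, among named rows of at least 1 CPM. The radius of 0.2 is below the SE of each of these fold changes, 0.23 to 0.36, so which genes lie nearest is not resolved.

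On GRCm38 the genes lie on several chromosomes. Ankrd1 spans chr19:36111961-36120099 on the minus strand, Cyr61 chr3:145646976-145649981 on the minus strand, Ctgf chr10:24595442-24598683 on the plus strand, Amotl2 chr9:102716672-102733418 on the plus strand and Tead2 chr7:45215753-45233644 on the plus strand. The longest coding transcripts have 9, 5, 4, 10 and 11 exons in that order. Cd37, a leukocyte gene on the other strand, overlaps the end of Tead2 by 13 bases and averaged 1.88 CPM, against 18.5 CPM for Tead2. Ctgf shares 1667 bases with Gm15270, an annotated transcript on the other strand with no row in the tables, and whether the counting used strand was not given in the sources used here.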

How the data were processed

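The 10 genes and all gene lists were chosen with earlier results of these data known. Genotype labels gave the groups, and titles number each library separately. Where libraries are not separate animals, p-values measure only technical spread. The submitters' processing notes name the build mm10 and the tools edgeR 3.2.4, featureCounts, Subread 1.4.6, Cufflinks, TopHat2 2.0.12 and bcl2fastq 1.8.4, without saying what each did. A strand-marking kit for total RNA was used, per the labels' protocols.

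The authors deposited 3 tables of 30431 rows. The deposited columns are, per the file headers, the log2 fold change, an average of CPM as log2, the likelihood ratio (a score), its p-value and the adjusted p-value. Averages were equal in the 3 tables and fold changes of the first pair subtracted to the third within 0.001 in 30431 rows, so they were read as contrasts of 1 fit of all 10 libraries. The deposited adjusted p-values equalled Benjamini-Hochberg values over all rows. No counts per library were analysed, so the deposited test is the one reported, and depth is unknown.

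The SE was obtained as the size of the log2 fold change over the root of the likelihood ratio. WT levels were taken so that the mean CPM over 4 WT, 3 SM and 3 DM libraries equals the deposited average. Calculations used Python 3.11.15, pandas 2.3.3 and scipy 1.17.1 and were tested on simulated data. Named genes were the 10, up to 6 called genes of each pathway list and comparison with the largest absolute change (a few are not reported here), Pkd2 and Vmp1 as label checks, and the 3 nearest patterns of genes called at an absolute log2 fold change of at least 1. The search for miR-21 words and levels per kilobase were chosen after the tables were seen. Alternatives were other thresholds, row sets, adjustments and centring.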

Additional observations from a re-analysis of the deposited data

How the results depend on the processing

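The 10 genes called in SM against WT numbered 5, and 4 to 6 under the 7 alternatives. In DM against WT they numbered 5, and 3 at a threshold of 0.01 and 3 with Benjamini-Yekutieli adjustment, where Ctgf (adjusted p = 0.0111 and 0.122) and Amotl2 (0.0196 and 0.213) were lost. Ankrd1, Cyr61 and Tead2 passed in both comparisons under every alternative run. In DM against SM 0 of 10 passed under each. Tead1 in SM against WT was lost at a threshold of 0.01, with an absolute log2 fold change of at least 1 also asked for, and with Benjamini-Yekutieli adjustment (adjusted p = 0.18). Recentring on the median of rows of at least 1 CPM, -0.01 in SM and 0.002 in DM against WT, turned no direction. Called rows in all were 4248 in SM against WT, and 2775 at 0.01 and 2262 with Benjamini-Yekutieli adjustment. In DM against WT they were 4100, 2596 and 2125, and in DM against SM 24, 7 and 6, with 13 when adjusted over rows of at least 1 CPM. In the kinase cascade 0 to 3 of 15 genes were called in SM. Leaving out each replicate and scaling by another tool were not run, because no values per library were analysed. No paired analysis was possible because the results come from tables without libraries. Depth is unknown, so what it limits was not tested.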
